A study of Mus musculus with 6 samples.

Results

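The bone morphogenetic protein (BMP) family was followed here through 10 genes: the ligands Bmp2, Bmp4 and Bmp7, the secreted modulators Grem1 and Bmper, the receptors Bmpr1a and Bmpr2, and the target genes Id1, Id2 and Id3. Every probe that the platform annotation gives to 1 of these symbols was taken, whatever its value, which gave 18 probes of the 45277 usable on the array. Of the 10 genes, 8 had at least 1 probe measured above background, and Bmp2 and Grem1 did not. The samples were whole mouse kidneys at E15.5 of embryonic development, hybridised to Illumina MouseWG-6 v2.0 bead arrays. There were 3 arrays of FoxD1GC;Dicerfl/fl kidneys, called FoxD1;Dicer below, and 3 arrays of Cre-negative littermate kidneys, called Control. Each of 3 litters gave 1 array of each genotype, and each array measured RNA pooled from the kidneys of 2 embryos. In FoxD1;Dicer embryos both Dicer alleles were floxed, and an eGFP-Cre fusion expressed from the endogenous FoxD1 locus, active in the renal stroma, removed the floxed exon there and in the descendants of those cells. The Cre line was bred on 129-Elite and the floxed line on C57BL/6J. Controls came from the same crosses without Cre, and their Dicer genotype is not given in more detail. Because no Control carried the Cre allele, loss of Dicer and the presence of that allele cannot be told apart.

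BMPs are secreted ligands of the TGF-beta superfamily. They bind type I receptors such as Bmpr1a and Bmpr1b together with type II receptors such as Bmpr2, and the receptors phosphorylate Smad1, Smad5 and Smad9, which enter the nucleus with Smad4. The Id genes, which encode inhibitors of basic helix-loop-helix transcription factors, are among the best known direct targets, and inhibitory Smads such as Smad6 and Smad7 feed back on the pathway. Outside the cell, gremlin, noggin, chordin and follistatin hold ligands away from the receptors. In the developing kidney Bmp7 maintains nephron progenitors, Bmp4 from the cells around the ureteric bud restrains its outgrowth, and Grem1 relieves that restraint. Dicer makes mature miRNAs, so the comparison asks whether transcripts of this pathway in the whole kidney differed when the stroma could no longer make them. In RNA from whole kidneys, fewer cells of a type and less RNA per cell cannot be told apart.

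Signals were background corrected, quantile normalised and put on a log2 scale, and a gene is given by its brightest tested probe. Fold changes are log2 FoxD1;Dicer minus Control from a limma model of genotype and litter. The threshold, as in the methods, was a positive B-statistic, which is the log odds that a probe differs. Median bead signal per array ran between 106.3 and 123.7, and between 37.5% and 44.7% of probes were detected. No probe of 18639 had B above 0 or an adjusted p under 0.05, and 1028 (5.52%) had an unadjusted p under 0.05. The paper, with its own processing in lumi, does report differentially expressed genes at E15.5. Its deposited log2 values, under the probe filter used here, also gave no probe with B above 0. The reason for the difference was not tested. Dicer1 itself had a log2 fold change of -0.33 (SE 0.21, 3 arrays each) and was lower in 3 of 3 litters at its brightest probe, while its other tested probes gave -0.15 and 0.09, each with mixed directions over litters. Whether its probes lie in the deleted exon is not given, so this does not check the deletion. Xist, which is transcribed in female cells, stood at 4.54, 9.39 and 9.64 in FoxD1;Dicer litters 1, 2 and 3, and at 9.64, 4.57 and 4.61 in Control litters 1, 2 and 3, so the pools of each litter differed in this sex-linked transcript, in the opposite direction in litter 1. The markers of nephron progenitors were detected on all 6 arrays in 6 of 6 cases, whereas 0 of 4 adrenal markers passed detection on 3 arrays. The summed normalised signal of smooth muscle and mesangial markers was 1419 to 2716 on FoxD1;Dicer arrays and 3723 to 4403 on Control arrays. Marker sums took the brightest probe of every listed gene with a probe, detected or not. Here 5 of 6 listed genes were summed, and 4 of them were measured. Acta2, the brightest, had a log2 fold change of -1.27 (limma adjusted p = 0.76), Myh11 -0.30 and Des -0.16, whereas Pdgfrb had 0.33 and was higher in 3 of 3 litters. The list thus did not move as a whole, and its part in the results for the BMP genes was not tested.

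None of the 8 measured BMP genes passed B above 0 between FoxD1;Dicer and Control kidneys, where the share over all tested probes was also 0%. None had an unadjusted limma p under 0.05, where 5.36% of all 10474 tested genes did (2.13% higher and 3.23% lower in FoxD1;Dicer kidneys). In the limma fit 5 were higher and 3 were lower in FoxD1;Dicer kidneys (all 8 lower when arrays were scaled to 1 median), with log2 fold changes between -0.23 for Id1 and 0.25 for Bmp4 and standard errors between 0.19 and 0.33. The median over the 8 genes was 0.02, and over all tested genes it was -0.04. At the brightest probe the direction was the same in 3 of 3 litters for 4 genes, Id2 and Id3 being higher and Id1 and Bmpr2 lower, where 25.3% of all genes kept 1 direction (9.86% higher and 15.4% lower). Only the Id3 values of the genotypes did not overlap, where 13.3% of all genes had no overlap (5.1% with FoxD1;Dicer above and 8.23% below). When arrays were scaled to 1 median in place of quantiles, the median over all genes moved to -0.27. Under that scaling Bmp4, Bmper, Id2 and Id3 lay above the median of all genes (by 0.23, 0.05, 0.08 and 0.11). Bmp7, Bmpr1a, Bmpr2 and Id1 lay below it. With quantile normalisation Bmpr1a had lain above that median, by 0.04, so its relative position turned.

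**Figure D1:**
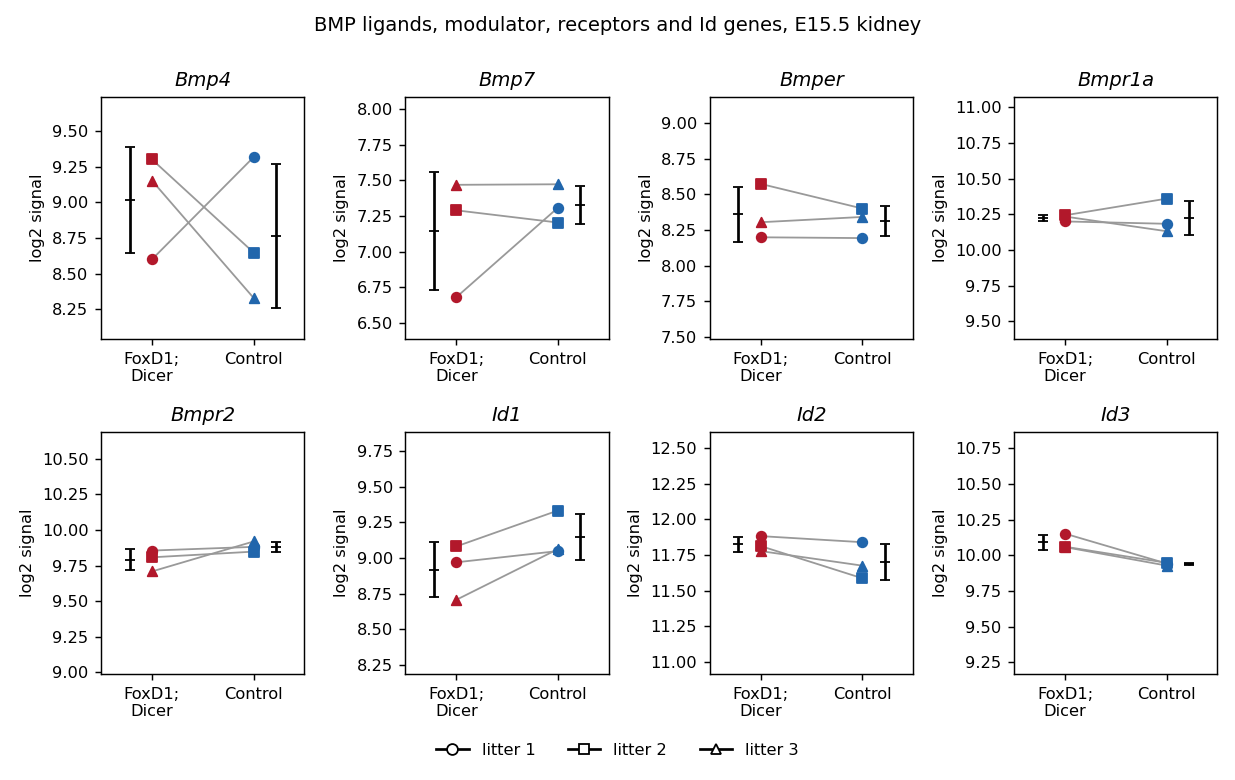
Log2 signal of the 8 measured BMP genes on each array, with FoxD1;Dicer arrays at the left and Control arrays at the right of each panel. Lines join the 2 arrays of a litter and the bars give the mean and SD of 3 arrays. Only the Id3 values do not overlap between the genotypes, and the Bmp4 lines cross, with litter 1 running opposite to litters 2 and 3. All panels span the same number of log2 units.

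Among the ligands, Bmp4 varied most between arrays. Its log2 level was 8.60, 9.30 and 9.15 in FoxD1;Dicer litters 1, 2 and 3, and 9.32, 8.65 and 8.33 in Control litters 1, 2 and 3 (9.02 ± 0.37 and 8.76 ± 0.50, SD, n = 3 each). The FoxD1;Dicer array was thus lower than its Control littermate array in litter 1 (by -0.72 on the log2 scale) and higher in litters 2 and 3 (by 0.65 and 0.82). Over the 3 litters the log2 fold change was 0.25 (95% interval -0.52 to 1.03, limma adjusted p = 0.925). Without litter 1 it was 0.74 (limma adjusted p = 0.186), and without litter 3 it was -0.03, so its size and sign depended on which litters were counted. A second Bmp4 probe was detected on 1 FoxD1;Dicer array and on no Control array, and was not tested.

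Bmp7, which is needed for survival of nephron progenitors, had log2 levels of 6.68, 7.29 and 7.47 in FoxD1;Dicer kidneys, against 7.31, 7.20 and 7.47 in Control kidneys. The single low value was the FoxD1;Dicer array of litter 1, and the other 5 arrays lay between 7.20 and 7.47. The log2 fold change was -0.18 (95% interval -0.72 to 0.36, limma adjusted p = 0.922). The other Bmp7 probe was detected on 1 Control array. The Bmp2 probe gave bead signals of 106.2, 105.1 and 98.4 in FoxD1;Dicer kidneys and 97.7, 103.7 and 102.3 in Control kidneys, not above the negative control beads on any array (lowest detection p 0.439), so no fold change is given. Of the ligands outside the 10 genes, 12 of 13 listed had a probe and 2 were measured. Bmp3 had a log2 fold change of -0.11. Bmp1, a protease that cleaves chordin and procollagen and is named with the ligands, had -0.37 at its brightest probe but 0.15 and 0.06 at its other tested probes. Bmp5 and Bmp6, which act through the same type I receptors, were not detected on 3 or more arrays and were not tested.

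Of the secreted modulators, Bmper, an extracellular protein that binds BMPs and can either dampen or promote their action, was nearly equal in both genotypes. Its log2 level was 8.20, 8.57 and 8.30 in FoxD1;Dicer kidneys and 8.19, 8.40 and 8.34 in Control kidneys, with litter differences of 0.01, 0.17 and -0.04. The log2 fold change was 0.05 (95% interval -0.41 to 0.51, limma adjusted p = 0.980). Grem1, the antagonist that frees ureteric bud outgrowth from Bmp4, was not measurable on this array: its bead signals were 110.0, 114.0 and 89.6 in FoxD1;Dicer kidneys and 107.0, 103.5 and 110.1 in Control kidneys, with a lowest detection p of 0.189. Noggin (Nog) and follistatin (Fst) likewise did not pass detection on 3 arrays.

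Chordin (Chrd), the antagonist that sequesters BMP ligands outside the cell, was the 1 gene of 26 measured in the wider pathway with an unadjusted limma p under 0.05, and it was lower in FoxD1;Dicer kidneys (background share 5.36% of genes, 3.23% in this direction). Its log2 level was 5.39, 5.60 and 4.84 in FoxD1;Dicer litters 1, 2 and 3, and 6.27, 6.81 and 6.62 in Control litters 1, 2 and 3. All 3 FoxD1;Dicer values lay below all 3 Control values. The litter differences were -0.88, -1.22 and -1.77, and the log2 fold change was -1.29 (95% interval -1.85 to -0.73, limma adjusted p = 0.713, B = -2.09), which did not pass the threshold. The probe was dim: its bead signals were 144.7, 135.4 and 107.8 in FoxD1;Dicer kidneys and 174.1, 213.8 and 203.0 in Control kidneys, and it was detected on 2 of 3 FoxD1;Dicer arrays and on 3 of 3 Control arrays. The size of the difference depended on how background was treated. It was -0.82 with a larger background offset, -0.52 with no background correction and -0.28 in the deposited log2 values. Scaling arrays to 1 median gave -1.43 with B = 4.77 and a limma adjusted p of 0.00116. Under that scaling every named gene had the same standard error, 0.30, so the spread of Chrd itself did not enter. The median over all tested genes was -0.27 there.

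**Figure D2:**
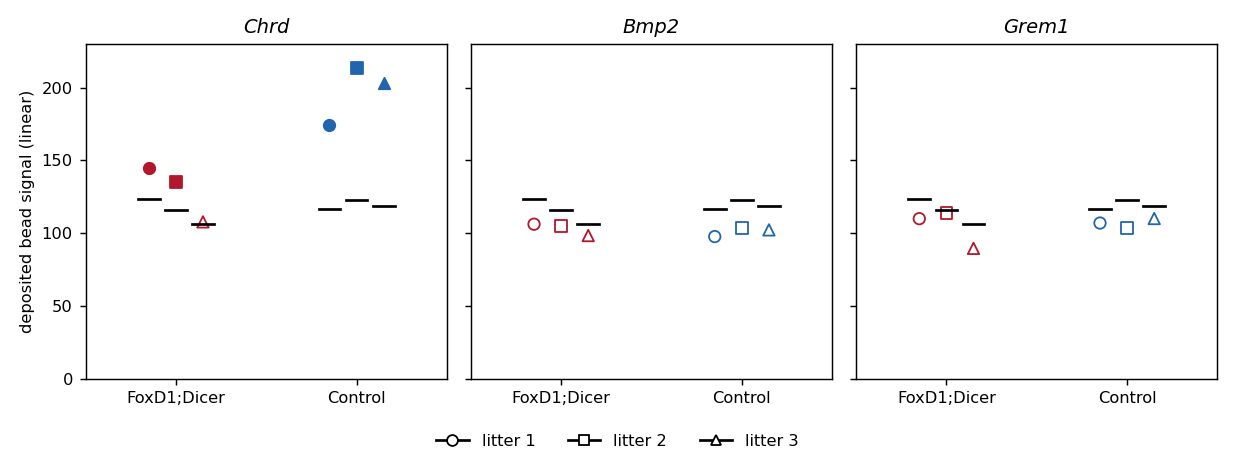
Deposited bead signals (linear scale) of the probes of Chrd, Bmp2 and Grem1 on each array, FoxD1;Dicer at the left and Control at the right of each panel. Filled symbols were detected above negative control beads (p under 0.05), open symbols were not, and the short bars give the median signal of the array. The 3 Chrd signals on FoxD1;Dicer arrays, 107.8 to 144.7, lie below the 3 on Control arrays, 174.1 to 213.8, and all Bmp2 and Grem1 symbols are open.

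The other measured antagonists and modulators did not pass the threshold. Sostdc1, a BMP and Wnt antagonist known in the kidney as uterine sensitization-associated gene 1, had log2 levels of 10.55, 9.77 and 9.87 in FoxD1;Dicer kidneys and 10.52, 10.48 and 10.35 in Control kidneys, so litters 2 and 3 were lower and litter 1 was not (log2 fold change -0.39, SE 0.22). Fstl1, a secreted glycoprotein that binds BMP ligands, had the largest positive value, 0.75 (SE 0.44, limma adjusted p = 0.860), but its litter differences were -0.72, 1.52 and 1.46, litter 1 again running opposite to the others. Fstl1 was chosen for mention after its values were seen. Of the 17 listed, Chrd among them, 7 were measured. The median over these was -0.30, with 2 above 0 and 5 below. Of the 7, only Chrd kept its direction in all litters.

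Both receptors had fold changes close to 0. Bmpr1a, a type I receptor, had log2 levels of 10.20, 10.24 and 10.23 in FoxD1;Dicer kidneys, against 10.18, 10.36 and 10.13 in Control kidneys, and the FoxD1;Dicer values lay inside the range of the Control values. Its log2 fold change was 0.00 (95% interval -0.46 to 0.46, limma adjusted p = 1). Its dimmer probe read 6.59, 6.94 and 7.64 in FoxD1;Dicer kidneys and 6.63, 6.69 and 6.57 in Control kidneys, with 1 high value in FoxD1;Dicer litter 3 (log2 fold change 0.43, SE 0.26, limma adjusted p = 0.86), so the 2 probes differed in size. Bmpr2, the type II receptor specific to BMPs, had log2 levels of 9.86, 9.81 and 9.71 in FoxD1;Dicer kidneys, against 9.88, 9.85 and 9.92 in Control kidneys. It was lower in 3 of 3 litters by 0.03, 0.04 and 0.21, the genotypes overlapped, and the log2 fold change was -0.09 (95% interval -0.55 to 0.37, limma adjusted p = 0.956). Of its 3 other probes, 1 was detected on 1 FoxD1;Dicer array and 2 on none.

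Among 10 further receptors and co-receptors 7 were measured. Of these 4 lay above 0 and 3 below, and their median was 0.01. Acvr1, a type I receptor for Bmp7, had log2 levels of 8.36, 8.23 and 7.93 in FoxD1;Dicer kidneys and 8.53, 8.59 and 8.48 in Control kidneys. The genotypes did not overlap and the FoxD1;Dicer array was lower in 3 of 3 litters, by -0.35 over all (SE 0.20, limma adjusted p = 0.860). Bmpr1b, another BMP type I receptor, had a log2 fold change of -0.27 (SE 0.24) at its brightest probe, with litter differences of 0.23, -0.45 and -0.59. Its other tested probe gave -0.23 (SE 0.20), lower in 3 of 3 litters and without overlap of the genotypes. Acvr2b, a type II receptor shared with activins, had 0.12 (SE 0.28). Within the cell, Smad1 had -0.14, Smad5 0.02 and the inhibitory Smad6 0.27, all with standard errors between 0.24 and 0.26, and the median of the 5 measured of 10 listed Smads and regulators was 0.09. Smad7 did not pass detection on 3 arrays, and the annotation names no probe for Smad4.

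**Figure D3:**
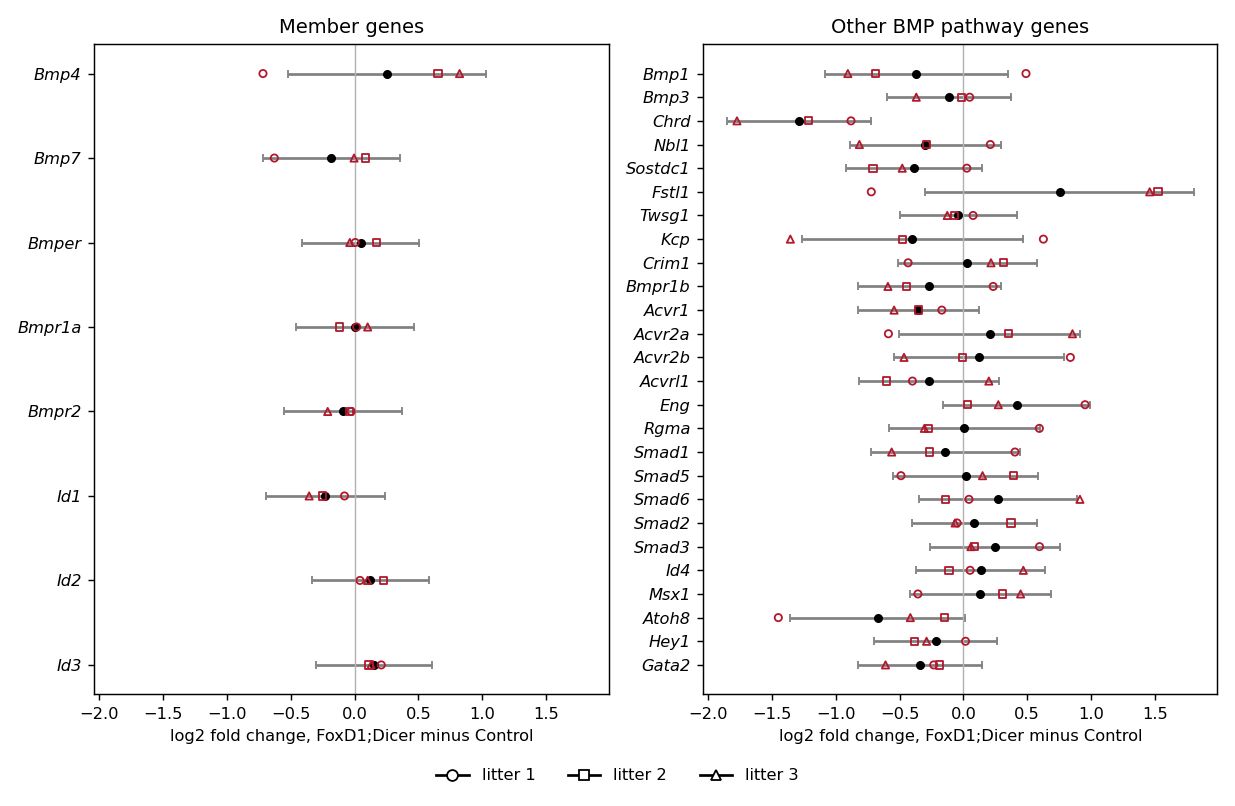
Log2 fold change (FoxD1;Dicer minus Control) of the 8 measured BMP genes at the left and of the 26 measured genes of the wider pathway at the right. Black points are limma estimates with 95% intervals and open symbols are the differences within each litter. All intervals of the 8 genes cross 0, and Chrd alone, at -1.29, has an interval that does not; with arrays scaled to 1 median all 8 genes lie below 0.

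At their brightest probes the 3 Id genes each kept 1 direction through all litters, and that direction was not shared. Id2 and Id3 were higher and Id1 was lower in FoxD1;Dicer kidneys, with intervals that included 0. With arrays scaled to 1 median Id2 was at -0.20 and Id3 at -0.16, which is 0.08 and 0.11 above the median of all genes there. Id1 had log2 levels of 8.97, 9.08 and 8.71 in FoxD1;Dicer kidneys, against 9.05, 9.33 and 9.06 in Control kidneys. Its lowest Control value, 9.05, lay below its highest FoxD1;Dicer value, and the litter differences were -0.08, -0.25 and -0.36. The log2 fold change was -0.23 (95% interval -0.69 to 0.24, limma adjusted p = 0.889), and in the deposited log2 values it was -0.16 (limma adjusted p = 0.872).

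Id2 had log2 levels of 11.88, 11.81 and 11.78 in FoxD1;Dicer kidneys, against 11.84, 11.59 and 11.67 in Control kidneys. The genotypes overlapped through the Control array of litter 1, and the litter differences were 0.04, 0.23 and 0.10. The log2 fold change was 0.12 (95% interval -0.34 to 0.58, limma adjusted p = 0.936), and its other tested probes gave 0.08 and 0.02. Both of these probes were higher in litters 1 and 2 but lower in litter 3, by -0.15 and -0.18, so the direction in litter 3 differed between probes. Before normalisation its bead signals were 3898.9, 3328.2 and 2784.6 in FoxD1;Dicer kidneys and 4080.0, 3435.4 and 3900.0 in Control kidneys, that is, lower in each FoxD1;Dicer array than in its littermate.

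Id3 had log2 levels of 10.15, 10.06 and 10.06 in FoxD1;Dicer kidneys, against 9.94, 9.95 and 9.93 in Control kidneys. The 3 FoxD1;Dicer values were all above the 3 Control values after normalisation. The litter differences were 0.21, 0.11 and 0.13 and the SDs 0.05 and 0.01. Before normalisation the bead signals were 1309.8, 1003.1 and 892.5 in FoxD1;Dicer kidneys and 1143.3, 1162.4 and 1230.5 in Control kidneys. These were higher than in the littermate only in litter 1, and the genotypes overlapped. The median signal of the arrays was likewise higher in FoxD1;Dicer litter 1 and lower in litters 2 and 3 than in the littermates. The log2 fold change was 0.15 (95% interval -0.31 to 0.61, limma adjusted p = 0.924), the width of the interval being set by the spread that limma pools over all probes, and in the deposited log2 values it was 0.14 (limma adjusted p = 0.872).

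The other target genes, Id4 among them, gave no common direction. Of 6 listed, 5 were measured. Their median was -0.22, with 2 above 0 and 3 below. Id4, the fourth Id gene, had a log2 fold change of 0.14 (SE 0.21) at its brightest probe and -0.09 at its other tested probe. Msx1, a homeobox target of BMPs, had 0.13 (SE 0.23). The Msx1 probe was dim, detected on 1 FoxD1;Dicer array and on 2 Control arrays. Atoh8, named after its values were seen as the gene with the next lowest unadjusted p, had -0.67 (SE 0.29, limma adjusted p = 0.860), with bead signals of 119.9, 124.0 and 111.1 in FoxD1;Dicer kidneys and 167.2, 138.5 and 137.9 in Control kidneys. The Atoh8 probe was dim too, detected on 2 FoxD1;Dicer arrays and on 3 Control arrays. Over the 26 measured genes of the wider pathway, 12 lay above 0 and 14 below, and the median was -0.08. Of the 26, 6 kept 1 direction in all litters (25.3% over all genes) and 5 had genotypes that did not overlap (13.3% over all genes).

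Promoters of Id2 and Id3 are shown because their brightest probes stood higher in every litter, and that of Chrd because it was the 1 pathway gene past an unadjusted p of 0.05. Id1, lower in every litter, had no entry among the promoters available and could not be shown. The windows are the 250 bases before the start of each gene, from RefSeq on GRCm38.p6, written along the gene strand. Capitals mark GGCGCC, a palindrome known from Smad-bound elements of Id promoters, so that both strands are searched at once. The letters occurred once in the window of Id2, 231 bases before the start, and once in that of Chrd, 203 bases before it, and not in that of Id3. They also occurred in 9.59% of 32851 promoter windows of the same length, and a match is a description of the letters only. Id2 lies at chr12:25096093-25096342 on the minus strand, Id3 at chr4:136143572-136143821 on the plus strand and Chrd at chr16:20732877-20733126 on the plus strand.
Id2: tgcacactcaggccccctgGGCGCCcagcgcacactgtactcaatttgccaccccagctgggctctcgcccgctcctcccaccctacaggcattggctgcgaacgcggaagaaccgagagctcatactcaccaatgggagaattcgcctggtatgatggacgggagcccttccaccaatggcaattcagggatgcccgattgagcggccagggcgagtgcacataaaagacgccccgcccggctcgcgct
Id3: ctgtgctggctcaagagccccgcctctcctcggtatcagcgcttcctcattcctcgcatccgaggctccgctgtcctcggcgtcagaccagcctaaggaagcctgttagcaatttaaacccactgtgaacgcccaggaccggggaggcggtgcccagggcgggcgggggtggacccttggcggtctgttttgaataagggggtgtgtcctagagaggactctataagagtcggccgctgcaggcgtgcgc
Chrd: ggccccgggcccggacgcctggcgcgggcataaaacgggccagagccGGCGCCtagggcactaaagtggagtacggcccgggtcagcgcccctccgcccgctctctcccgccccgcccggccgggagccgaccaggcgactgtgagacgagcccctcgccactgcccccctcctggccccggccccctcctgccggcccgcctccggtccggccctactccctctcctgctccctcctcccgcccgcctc

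The Bmp4 levels split with high and low Xist and not with genotype. On the 3 arrays with high Xist (FoxD1;Dicer litters 2 and 3 and Control litter 1) Bmp4 stood between 9.15 and 9.32, and on the 3 with low Xist it stood between 8.33 and 8.65, without overlap. The same separation was seen in 29.3% of all 10474 tested genes, in 1 of the 8 BMP genes (12.5%) and in 9 of 26 genes of the wider pathway (34.6%). The 9 were Bmp1, Nbl1, Fstl1, Kcp, Bmpr1b, Acvr2a, Acvr2b, Smad1 and Smad5. Fstl1, Acvr2a and Smad5 were higher on the arrays with high Xist, as Bmp4 was, and the others were lower there. With the Xist level as a covariate beside litter, the Bmp4 log2 fold change was 0.02 (limma adjusted p = 0.979), and that of Chrd was -1.19 (limma adjusted p = 0.466). That fit placed litter, genotype and Xist on 6 arrays, which left little from which to estimate spread. The 3 arrays with high Xist also had more probes detected (42.7%, 44.3% and 44.7%) than the 3 with low Xist (38.4%, 37.5% and 41.8%). The labels do not give the sex of the pools. The parts of sex and of array detection in the Bmp4 levels cannot be told apart and were not tested. The genes outside the family whose pattern over the 6 arrays was nearest to that of Bmp4 were Xpo7, Spag7 and Ciapin1, at a root mean square distance of 0.0978, 0.101 and 0.116 log2 units after centring each gene, where the median over 10466 genes was 0.456. Their log2 fold changes, 0.34, 0.20 and 0.26, follow from that choice by pattern and are no separate result.

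**Figure D4:**
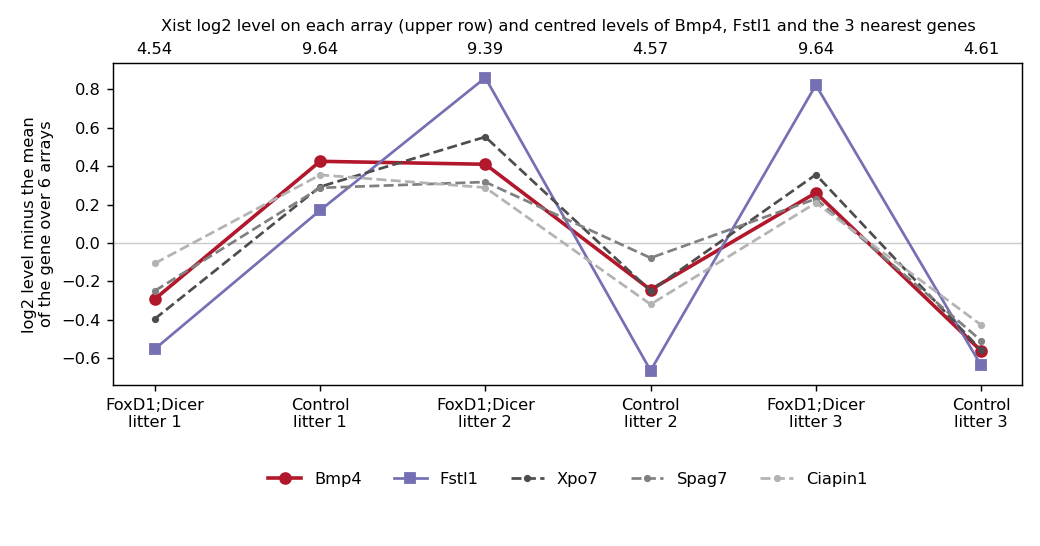
Log2 level minus the mean of the gene over 6 arrays, for Bmp4, Fstl1 and the 3 genes of most similar pattern, by array and with the FoxD1;Dicer array left of its Control littermate. The Xist log2 level of each array is printed along the top. Bmp4 lies above its mean on the 3 arrays with Xist between 9.39 and 9.64 and below it on the 3 with Xist between 4.54 and 4.61, whatever the genotype; lines only join the arrays of 1 gene.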

How the data were processed

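Kidneys at E15.5 were assigned to genotype and litter from the sample labels. The deposited intensity was the mean bead signal per probe, neither background subtracted nor normalised by the authors, and the scanner software was not stated. The deposited detection p-value sets each signal against negative control beads. The authors also deposited log2 values, made with lumi, with array medians of 7.235 to 7.239 and an unnamed transformation; these served as an alternative.

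Of 45281 entries, 2 without an identifier and 2 repeated were left out. Of the rest 34881 probes had 1 gene, 18 several and 10378 were unnamed. Signals were processed with neqc (normexp from detection p-values, offset 16, quantile normalisation, log2). A probe was tested where its detection p-value was under 0.05 on 3 or more arrays, which left 18639, among them 16107 with 1 gene (10474 genes). Litter and genotype were fitted with limma (prior share 0.01, B above 0, Benjamini-Hochberg over all tested probes). The fit was also tested on simulated data. Precision is limited by the number of arrays. The median standard error of a tested probe was 0.22.

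The study's text and the labels make the replicate number a shared litter, so litter was a block. Same-litter arrays, as deviations from their genotype means, had correlations over tested probes of -0.29 (litter 1), -0.02 (litter 2) and -0.12 (litter 3).

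The 10 genes, the 5 pathway lists (56 genes) and the markers were chosen with earlier results of these data known. Named genes were all 10, 16 pathway genes whatever their values, pathway genes with an unadjusted p under 0.05, Dicer1, Foxd1 and Xist as checks, and the 3 genes nearest to the member with the largest absolute fold change. Foxd1 had a log2 fold change of -0.32 (SE 0.20). Gdf7, Smad4 and Smurf2 were named by no probe of the annotation. Other settings left litter out, took it as a random effect, and used the deposited log2 values, no background correction, scaling to 1 median, no probe filter, a strict filter (p under 0.01 on 6 arrays), array weights, Xist as a covariate, each litter left out, all probes of a gene averaged and, added after the Chrd signals were seen, an offset of 50. Marker sums (FoxD1;Dicer, then Control) were 1411 to 2003 and 1321 to 1710 for nephron progenitors, 940 to 1504 and 1077 to 1382 for ureteric bud, 4339 to 5268 and 5160 to 5315 for stroma, 780 to 1359 and 955 to 1099 for podocytes, 2678 to 3234 and 2919 to 3316 for endothelium, 245 to 402 and 264 to 278 for macrophages, 32433 to 36825 and 33938 to 38635 for red cells, 94 to 106 and 92 to 124 for adrenal gland and 754 to 1070 and 919 to 1105 for gonad (Amh, Dhh and Foxl2 detected on no array). Fits ran in R 4.3.3 with limma 3.58.1, and figures were drawn with matplotlib 3.10.9 in Python 3.11.15. RefSeq promoters matched 7 of the 10 genes, Id1 not among them.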

Additional observations from a re-analysis of the deposited data

How the results depend on the processing

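None of the 8 measured BMP genes passed B above 0 under any setting run, and Bmpr2, Id1, Chrd, Sostdc1, Bmpr1b and Acvr1 kept their sign in every setting in which they were tested. Their sizes moved: with 1 litter left out the log2 fold change was -0.52 to -0.11 for Bmpr1b, -0.59 to -0.23 for Sostdc1 and -0.13 to -0.033 for Bmpr2, the first value of Bmpr1b and Sostdc1 being without litter 1, where each had an unadjusted p under 0.05. An unadjusted limma p under 0.05 was also seen for Bmpr1b and Sostdc1 with array weights, and for Sostdc1 with scaling to 1 median. Acvr1 had such a p in the deposited log2 values, with scaling to 1 median, with no probe filter and with array weights. The mean of all tested probes gave 0.21 for Bmpr1a, 0.07 for Id2, 0.0254 for Id4 and -0.13 for Dicer1. Under the strict filter Chrd, Smad6 and Msx1 were not tested. Chrd kept an unadjusted p under 0.05 in all its settings, its adjusted p running from 0.00116 (scaling to 1 median) to 1 over the limma fits; it passed B above 0 under that scaling and with array weights (log2 fold change -1.29, B = 2.24, limma adjusted p = 0.0495).

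Without the litter block, 34 probes had B above 0 and 2 wider pathway genes had an unadjusted p under 0.05 (Chrd and Atoh8), against 0 and 1 with it, and with litter as a random effect these were 10 and 2; the block changed no call of a BMP gene. Probes with B above 0 numbered 5 with no background correction, 117 with arrays scaled to 1 median, 249 with array weights, 10 with Xist as a covariate and 0 to 35 with 1 litter left out. Probes with an unadjusted p under 0.05, 1028 as reported, numbered 1863 with arrays scaled to 1 median, 2396 with no probe filter, 5851 with array weights, 1729 with Xist as a covariate and 551 to 3923 with 1 litter left out. BMP genes with an unadjusted p under 0.05 numbered 1 with array weights (Bmp4, 0.58, adjusted p = 0.0978 from limma) and 0 to 1 with 1 litter left out (Bmp4 without litter 1). Wider pathway genes with such a p numbered 3 in the deposited log2 values, 2 with no background correction, 7 with arrays scaled to 1 median, 2 with no probe filter, 0 under the strict filter, 9 with array weights, 4 with Xist as a covariate and 1 to 7 with 1 litter left out. The cause was not tested.

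With arrays scaled to 1 median the median log2 fold change was -0.27 over the BMP genes and -0.29 over the wider pathway, and the sign turned for Bmp4 (-0.0431), Bmper (-0.22), Bmpr1a (-0.32), Id2 (-0.20), Id3 (-0.16), Acvr2b (-0.20), Smad5 (-0.26) and Id4 (-0.17). It also turned for Bmpr1a in the deposited log2 values (-0.0046), for Bmp7 (0.0169), Bmpr1a (-0.0691), Acvr2b (-0.0233) and Id4 (-6e-04) with array weights, and for Smad5 (-0.10) with Xist as a covariate. With 1 litter left out the median was -0.0325 to 0.0544 over the BMP genes and -0.22 to -0.0441 over the wider pathway, and log2 fold changes were -0.0319 to 0.74 for Bmp4, -0.32 to 0.0409 for Bmp7, -0.0157 to 0.0892 for Bmper, -0.0501 to 0.0597 for Bmpr1a, -0.24 to 0.41 for Acvr2b, -0.41 to 0.0706 for Smad1, -0.17 to 0.27 for Smad5, -0.049 to 0.48 for Smad6, -0.0302 to 0.26 for Id4 and -0.0237 to 0.38 for Msx1. Dim probes limit what was measured: Bmp2 and Grem1 gave no value above background, and Chrd lay near it on FoxD1;Dicer arrays.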
